A study of Mus musculus with 33 samples.

Results

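ING1 binding was mapped in C2C12 cells, a mouse muscle precursor line, after differentiation into myotubes and during growth as myoblasts. The comparison used 5 of the 33 samples of the series, chosen by their labels: 3 ChIP samples of myotubes, kept for 96 h in 2% horse serum, and 2 ChIP samples of growing myoblasts, kept in 10% fetal bovine serum. Cells of both states came from a stable line that carried an ectopic Flag-tagged ING1 cDNA in pBabe-puro and had been selected with puromycin, and the antibody was directed at Flag. The lists therefore describe the tagged protein. Chromatin was sonicated to about 250 bp. Chromatin immunoprecipitation followed by sequencing (ChIP-seq) reads the DNA that an antibody pulls down, and stretches with many reads are listed as peaks. There were 7 ING1 lists: 1 for each replicate and 1 pooled list per state made by the authors. On chromosomes 1 to 19, to which all results refer unless stated, the pooled lists held 9570 peaks in myotubes and 8114 in myoblasts. A pooled peak was called supported when it met, by 1 bp or more, a peak in at least 1 replicate list of its own state. That left 3152 supported peaks in myotubes and 4764 in myoblasts.

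ING1 belongs to a family of small nuclear proteins whose PHD finger reads histone H3 trimethylated at lysine 4 (H3K4), the mark of active promoters, and it is a subunit of the Sin3 histone deacetylase complex. Of the other proteins mapped in the series, all but Sin3A belong to the machinery that adds or removes methyl groups at H3K4. Sin3A is the scaffold of the Sin3 complex. MLL1 and MLL3 are H3K4 methyltransferases, Wdr5 is a core subunit of the MLL complexes and Menin joins that of MLL1. LSD1 removes methyl groups from H3K4. When C2C12 cells lose serum they leave the cell cycle, switch on muscle genes and fuse into multinucleated myotubes. Of the other factors, Sin3A was mapped in myotubes, LSD1 in both states and Menin, Wdr5, MLL1 and MLL3 in myoblasts, as the sample labels have it. The design text places Sin3A in myoblasts, and the source label of the MLL1 samples names Menin while their title and antibody name MLL. For ING1, the comparison asks where it binds before and after differentiation.

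The length of the replicate lists varied widely within each state. In myotubes the lists held 2151, 2485 and 122 peaks (replicates 1, 2 and 3), and in myoblasts 427 and 5496 (replicates 1 and 2). Myotube replicate 3 and myoblast replicate 1 stood apart as short lists, and the ranges of the states overlapped. The mean was 1586 ± 1279 peaks in myotubes (SD, n = 3) and 2962 ± 3584 in myoblasts (SD, n = 2; two-sided exact permutation p = 0.6, adjusted p = 0.9 over 9 measures). Median peak widths were 564, 577 and 479 bp in the myotube lists and 518 and 640 bp in the myoblast lists (exact permutation p = 0.6). The longer lists had the wider peaks in each state. With 3 lists against 2, the smallest p that this test allows is 0.2. Nothing in the labels says that replicates were separate cultures, so the p-values refer to the variation among these libraries, part or all of which may be technical. The files hold peak boundaries without heights or read counts, so the depth behind each list is unknown.

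**Figure D1:**
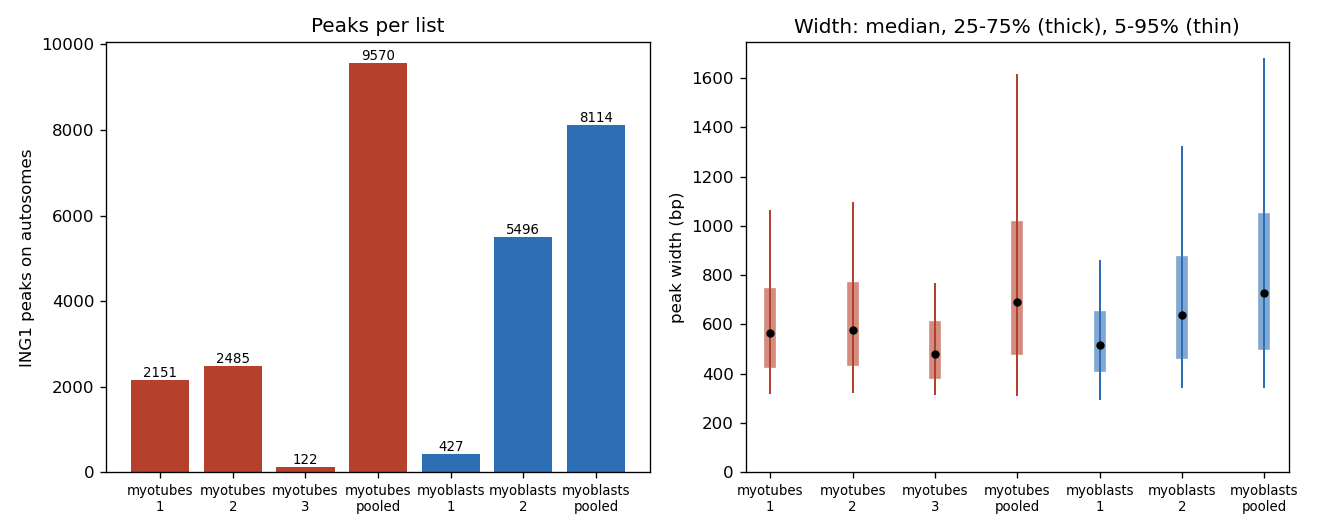
Left, number of ING1 peaks on the autosomes in each list (bars). Right, peak width in bp, with the median (dot), the middle 50% of peaks (thick line) and the range from the 5th to the 95th percentile (thin line). Myotube lists are red and myoblast lists blue. Myotube replicate 3 (122 peaks) and myoblast replicate 1 (427 peaks) are the short lists, and the pooled lists have wider peaks than their replicates.

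Pooling brought in many peaks that no replicate list held. In myotubes 6418 of the 9570 pooled peaks (67.1%) met no replicate peak, and in myoblasts 3350 of 8114 (41.3%). Those peaks were narrow, with a median of 591 bp in myotubes and 555 bp in myoblasts, against 998 and 890 bp for supported peaks. Peaks were wider the more replicate lists held them. In myotubes the median was 908.5 bp for peaks in 1 replicate list, 1133 bp for 2 lists and 1280 bp for all 3. In myoblasts it was 865.5 bp for 1 list and 1292 bp for both. Myotube support came mostly from replicates 1 and 2, which together held 1227 peaks that replicate 3 lacked, while 1059 peaks were found in replicate 2 alone and 744 in replicate 1 alone. Myoblast support came almost wholly from replicate 2: 4360 of the 4764 supported peaks met that list alone, 66 met replicate 1 alone and 338 met both.

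The pooled myoblast list left out part of its own longest replicate. Of the 5496 peaks in myoblast replicate 2, 551 (10.0%) met no pooled myoblast peak. Myoblast replicate 1 had 16 such peaks (3.75% of its list). The myotube lists had 20 (0.93%), 15 (0.60%) and 0 peaks outside their pooled list. The 551 peaks had a median width of 578 bp, against 647 bp for the rest of that list. Of them, 403 (73.1%) met a pooled myotube peak, and 84.9% met a Wdr5 peak of myoblasts. These shares are near those of all pooled myoblast peaks, 72.2% and 84.1%, and below those of the whole replicate 2 list, 83.6% and 90.3%. Another 961 peaks of myoblast replicate 2 had exactly the boundaries of a pooled myoblast peak, against 119 for myotube replicate 2. Absence from the pooled myoblast list was therefore checked against the replicate lists in what follows.

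Most supported ING1 sites were listed in both states. Of the 3152 supported myotube peaks, 2574 (81.7%, exact 95% interval 80.3 to 83.0) met a pooled myoblast peak, against 62.5% of all pooled myotube peaks. Of the 4764 supported myoblast peaks, 4079 (85.6%, exact 95% interval 84.6 to 86.6) met a pooled myotube peak, against 72.2% of all pooled myoblast peaks. The intervals cover counting error only, and peaks of a list are not replicates, so no test was made. The partner was often unsupported: 2107 of the myotube peaks (66.8%) and 2175 of the myoblast peaks (45.7%) met a supported peak of the other state. Without myoblast replicate 2, only 404 myoblast peaks remained supported, of which 95.3% met a myotube peak.

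Sharing rose with replicate support. Myotube peaks met a myoblast peak in 53.0% of cases when no replicate list held them, 77.0% for 1 list, 87.4% for 2 and 98.7% (77 of 78) for all 3. Myoblast peaks met a myotube peak in 53.2% of cases with no list, 84.7% with 1 and 97.6% (330 of 338) with both. Sharing also rose with width: supported peaks under 500 bp were shared in 60.6% of cases in myotubes and 71.1% in myoblasts, and those of 1500 bp or more in 92.3% and 95.8%. Within each of the 5 width classes supported peaks were shared more often than unsupported ones. From 500 bp to under 750 bp, for example, the shares were 74.0% against 51.1% in myotubes and 80.7% against 49.2% in myoblasts. Longer lists also had wider peaks, and the part of list length in these shares was not tested.

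**Figure D2:**
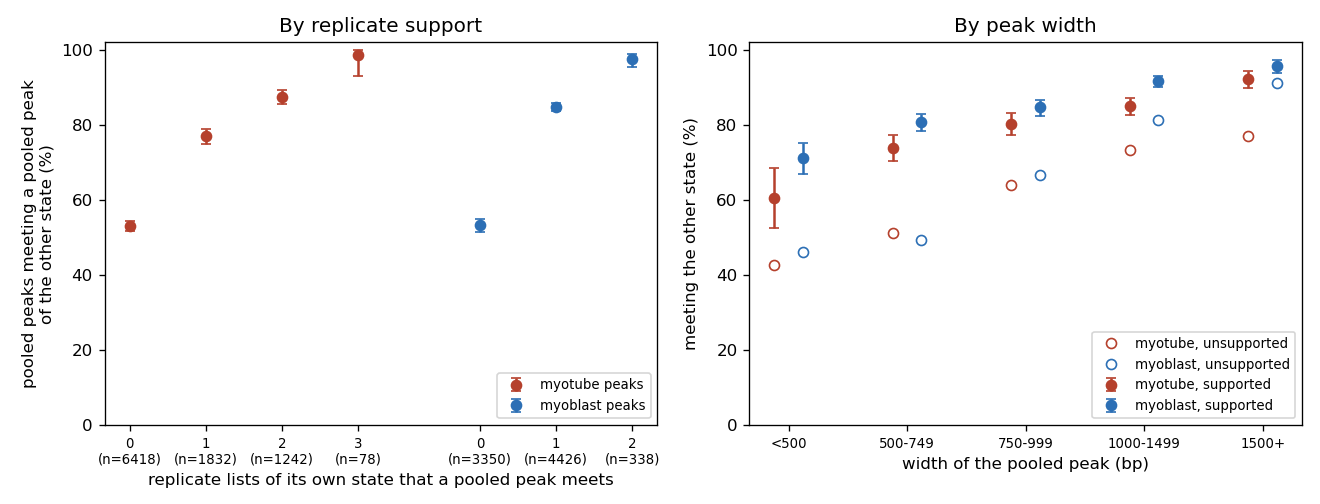
Share of pooled ING1 peaks that meet a pooled peak of the other state (%), for myotube peaks (red) and myoblast peaks (blue). Left, by the number of replicate lists that hold the peak. Right, by peak width in bp, for supported peaks (filled, with exact 95% binomial intervals) and unsupported peaks (open). Shares climb from 53.0% to 98.7% in myotubes and from 53.2% to 97.6% in myoblasts with support.

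Peaks of a single state were then sought in every list. In the pooled lists, 578 supported myotube peaks met no myoblast peak. Of these, 145 met a peak in a myoblast replicate list, 144 of them one in replicate 2, which left 433 (13.7% of the supported peaks) in no myoblast list. In myoblasts 685 supported peaks met no pooled myotube peak, 7 of these met a myotube replicate peak, and 678 (14.2%) lay in no myotube list. Among all pooled peaks, 33.5% of those of myotubes and 27.6% of those of myoblasts lay in no list of the other state. Among the 433 myotube sites, 334 were in 1 replicate list, 98 in 2 and 1 in all 3. Among the 678 myoblast sites, 670 were in 1 replicate list and 8 in both. Peaks of 1 state were narrower than shared ones, with a median of 1042 bp for shared and 835.5 bp for unshared peaks in myotubes, and 928 bp for shared and 713 bp for unshared peaks in myoblasts.

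Some of these sites lay beside a site of the other state. Of the 433 myotube sites, 63 (14.5%) lay within 1 kb of a pooled myoblast peak and 124 (28.6%) within 10 kb. The median distance was 33.7 kb. Of the 678 myoblast sites, 158 (23.3%) lay within 1 kb of a pooled myotube peak and 227 (33.5%) within 10 kb, with a median of 32.1 kb. For comparison, 52 of the myotube sites and 115 of the myoblast sites lay within 1 kb of a shared peak of their own state, and 23.6% and 25.1% lay within 10 kb.

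Lists were also set against each other without the pooled files. Myotube replicates 1 and 2 met each other at 62.0% and 53.9% of their peaks, and met myoblast replicate 2 at 71.5% and 70.5%. The 5496 peaks of myoblast replicate 2 met them at 28.4% and 32.3%. The short myotube replicate 3 met myotube replicates 1 and 2 at 68.9% and 70.5% of its 122 peaks and myoblast replicate 2 at 78.7%. The short myoblast replicate 1 met myoblast replicate 2 at 79.6% of its 427 peaks and myotube replicates 1 and 2 at 52.2% and 58.1%. A share in this comparison is bounded by the length of the list that is searched. Taken as the share of the shorter list, pairs within a state averaged 70.2% and pairs between states 58.3% (exact permutation, one-sided, p = 0.1, which is the lowest that 10 arrangements allow). Without myoblast replicate 1 the difference of 11.9 percentage points turned to −6.46. When the 3 long lists were shortened to their 2151 widest peaks, the myotube lists met each other at 55.2% and 55.0%, and met myoblast replicate 2 at 39.3% and 40.7%. That number is the full length of myotube replicate 1, and the cut took most of the 5496 peaks of myoblast replicate 2. An effect of state on these shares cannot be told apart from that cut. With all 5 lists shortened to their 122 widest peaks, pairs within a state averaged 12.9% and pairs between states 9.70%, a gap of 3.21 points (exact permutation, one-sided, p = 0.3).

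**Figure D3:**
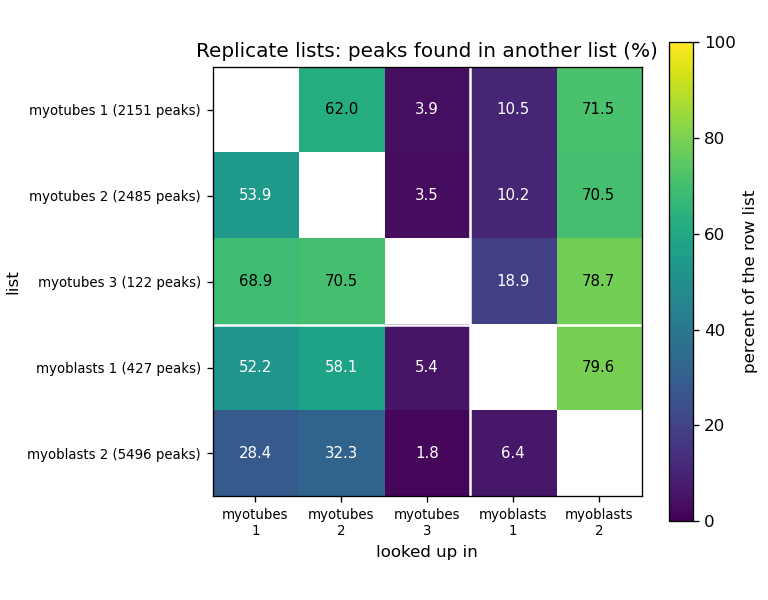
Share of the peaks of each ING1 replicate list (rows, with the number of peaks) that meet a peak of another list (columns), in percent. White lines separate myotubes from myoblasts. The column of myoblast replicate 2 holds 70.5 to 79.6%, and the columns of the 2 short lists hold the lowest shares.

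Merging the 2 pooled lists gave 11360 ING1 sites, each of which was scored in the 5 replicate lists. A replicate list held 5921 of them. Lists of both states held 2236 sites (37.8% of the supported sites), myotube lists alone 890 (15.0%) and myoblast lists alone 2795 (47.2%). Of the sites of myoblast lists alone, 2681 rested on replicate 2 only. The 3 long lists together held 1042 sites, and all 5 lists held 21. Without myoblast replicate 2, 297 sites were left in lists of both states, 2829 in myotube lists alone and 114 in myoblast lists alone. Without myotube replicate 2, 530 sites were in myotube lists alone.

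The peaks of shared sites had similar positions in both states. At 1731 sites, 1 supported myotube peak and 1 supported myoblast peak met each other and no other. The overlap covered a median of 70.1% of their joint span (middle 50% of sites, 56.3 to 81.9%). The centres lay a median of 123.5 bp apart, less than the sonicated fragment length. Median width was 1070 bp in myotubes and 984 bp in myoblasts, and widths correlated across sites (Spearman rho 0.509 over 1731 sites, which share their libraries). The myotube peak was the wider at 57.5% of the sites (exact 95% interval 55.2 to 59.9), by a median of 68 bp over all sites. The direction depended on the lists. With replicate lists it was 33.8% and 33.0% for myotube replicates 1 and 2 against the long myoblast replicate 2, and 67.3% and 68.9% against the short myoblast replicate 1. No direction of width between the states can be given from these lists.

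**Figure D4:**
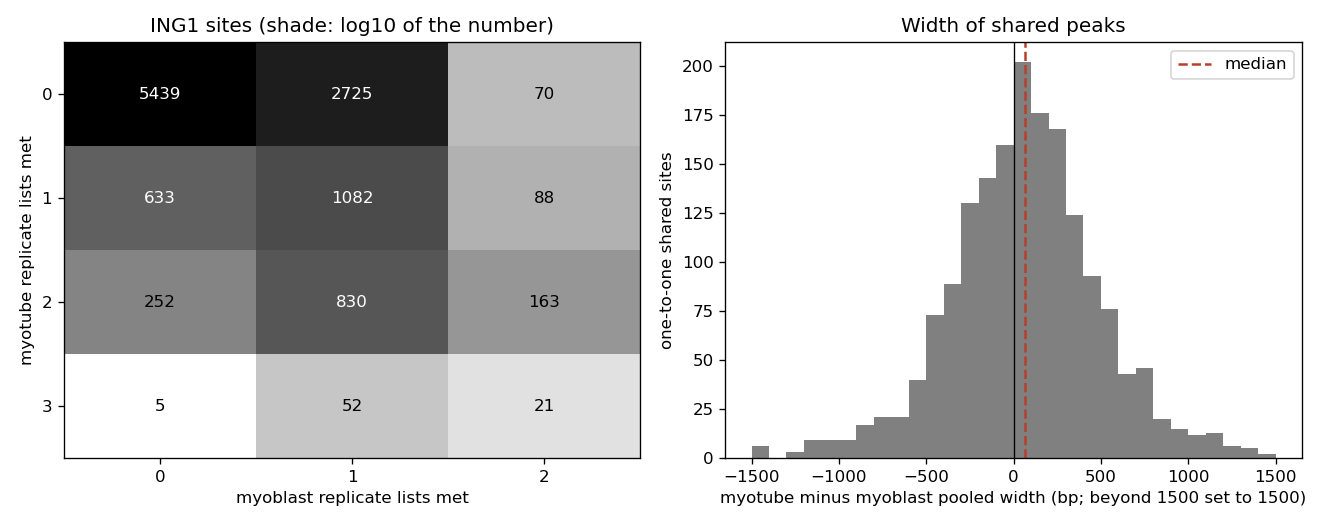
Left, number of ING1 sites by how many myotube (rows) and myoblast (columns) replicate lists they meet, with darker shades for more sites on a log scale. The 21 sites at the lower right met all 5 lists. Right, histogram of the myotube minus myoblast pooled peak width (bp) at the 1731 one-to-one shared sites, centred near the median of 68 bp (dashed line).

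ING1 peaks often came in close pairs. Neighbouring pooled peaks lay less than 1 kb apart in 1590 cases in myotubes (16.6% of gaps) and 1167 in myoblasts (14.4%), but 1 to 2 kb apart in only 134 and 120 cases. Gaps under 200 bp alone numbered 727 in myotubes and 509 in myoblasts. A broad peak of one state could match a pair in the other. In myotubes 215 supported peaks (6.82%) met 2 or more myoblast peaks, and in myoblasts 378 (7.93%) met 2 or more myotube peaks. The median gap inside such pairs was 159 bp between the myoblast peaks and 169.5 bp between the myotube peaks. Both medians were shorter than the sonicated fragments. Separate neighbouring sites and 1 region listed as 2 peaks cannot be told apart from boundaries alone.

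The 5 widest of the 21 sites found in every replicate list show how one place looks in each library. The coordinates are of mouse build mm9, and an annotation of that build was not used here, so genes are not named. The widest, on chromosome 6 from 91633574 to 91636662, was covered wholly by a myotube peak and over 83.1% by a myoblast peak. Inside it, myotube replicate 1 had peaks of 512 and 389 bp, replicate 2 had 573 and 930 bp and replicate 3 had 592 bp, while myoblast replicates 1 and 2 had 314 and 1758 bp. Sin3A of myotubes covered 87.0%, Menin 96.2% and Wdr5 92.2% of its length. LSD1 covered 68.4% in myotubes and 20.2% in myoblasts, MLL1 covered 12.1%, and MLL3 had no peak there.

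At the next 3 sites the pooled myotube list had 2 peaks where the pooled myoblast list had 1. On chromosome 14 from 12385481 to 12387862 the myotube peaks measured 1203 and 456 bp and the myoblast peak 2299 bp. On chromosome 2 from 116945471 to 116947741 they measured 1375 and 607 bp against 1824 bp, and MLL1 covered 95.7% of the site while no LSD1 peak of either state lay there. On chromosome 8 from 124113748 to 124115636 they measured 1148 and 559 bp against 1259 bp, with no MLL1 peak. The fifth site, on chromosome 9 from 63449671 to 63451543, had 1 myotube peak of 1147 bp and 1 myoblast peak of 1604 bp. None of the 5 sites held an MLL3 peak, and all 5 held Sin3A, Menin and Wdr5. Among all 21 sites, MLL3 lay at 5, Menin and Wdr5 each at 20 and Sin3A at 21. Of all 5921 supported sites, 21.5% had MLL3, 92.1% Menin, 90.6% Wdr5 and 88.3% Sin3A. Nothing can therefore be read from these counts.

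The site of myotubes alone with most support was on chromosome 14 from 65880884 to 65881682. It was in all 3 myotube lists, with peaks of 612, 459 and 450 bp in replicates 1, 2 and 3, and in no myoblast list. Wdr5 of myoblasts covered all of it and Sin3A of myotubes 46.9%, and neither MLL1 nor LSD1 had a peak there. The next 4, ranked by width, were in myotube replicates 1 and 2. On chromosome 1 from 60622557 to 60624365 (1809 bp) MLL1 covered 74.4% and Sin3A 76.2%, and there was no Wdr5 peak. On chromosome 7 from 4088121 to 4089913 Sin3A covered 35.5% and LSD1 of myotubes 39.8%. On chromosome 10 from 80840303 to 80842073 Menin and Wdr5 covered the whole site and Sin3A 89.9%. On chromosome 18 from 65959312 to 65961048 Sin3A covered 86.6%. All 5 sites held a Menin peak of myoblasts and a Sin3A peak of myotubes, as did 85.6% and 80.0% of all pooled myotube peaks, so nothing can be read from 5 of 5.

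The widest of the 8 myoblast sites in both replicate lists was on chromosome 19 from 7113765 to 7115225. Myoblast replicate 1 had a peak of 505 bp there and replicate 2 had peaks of 716 and 637 bp, and no myotube list had one. The next were on chromosome 11 from 5440928 to 5442209, chromosome 2 from 152757993 to 152759268, chromosome 19 from 32831984 to 32833160 and chromosome 4 from 94280885 to 94281972. At the second site on chromosome 19 the replicate peaks did not overlap each other. That of replicate 1 ended at 32832442 and that of replicate 2 began at 32832444, both inside the pooled peak. Menin covered all 5 sites completely, and Wdr5 covered 91.6% of the last and all of the other 4. MLL1 covered all of the site on chromosome 11, 92.1% of the second on chromosome 19 and 41.8% of that on chromosome 4. Sin3A of myotubes lay at 4 of the 5 and had no peak at the one on chromosome 2, where MLL1 had none either. Sin3A lay at 76.4% of all pooled myoblast peaks, close to 4 of 5. Menin lay at 88.0% of all pooled myoblast peaks, Wdr5 at 84.1% and MLL1 at 38.1%, so nothing can be read from these 5 sites.

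The next question was which other factors lay at shared sites and at sites of 1 state. The factor lists differed greatly in length, with 68934 peaks for Menin, 58123 for Wdr5, 8795 for MLL1 and 208538 for MLL3. LSD1 had 4419 in myoblasts and 16361 in myotubes, and Sin3A had 13845. A share depends on the length of the list searched. Shares are therefore compared between classes of ING1 peaks, not between factors. In myotubes Sin3A, the partner of ING1 in the deacetylase complex, lay at 95.2% of the 2574 supported shared peaks (exact 95% interval 94.3 to 96.0) and at 83.6% of the 578 peaks of myotubes alone (80.3 to 86.5), against 80.0% of all pooled myotube peaks. LSD1 of myotubes lay at 55.4% of the shared and 33.2% of the myotube peaks, against 37.8% of all. The 433 sites in no myoblast list had Sin3A at 81.1% and LSD1 at 30.7%. Shared peaks had more of both factors in each of the 5 width classes: the Sin3A difference ran from 2.78 to 36.4 percentage points and that of LSD1 from 9.64 to 24.8.

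In myoblasts Menin and Wdr5 lay at most ING1 peaks of either class. Menin lay at 94.0% of the 4079 supported shared peaks and 88.6% of the 685 peaks of myoblasts alone, against 88.0% of all pooled myoblast peaks. Wdr5 lay at 92.7% and 80.1%, against 84.1% of all. LSD1 of myoblasts lay at 49.3% (exact 95% interval 47.8 to 50.9) of the shared and 29.5% (26.1 to 33.1) of the myoblast peaks, against 36.3% of all. The Wdr5 and LSD1 differences kept their direction in all 5 width classes. That of Menin did in 4, and turned to −2.43 points among peaks of 1500 bp or more, of which 25 were of myoblasts alone.

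MLL1 did not follow that order in myoblasts. It lay at 43.7% of the supported shared peaks (exact 95% interval 42.2 to 45.3) and 45.0% of the supported peaks of myoblasts alone (41.2 to 48.8), against 38.1% of all. In each of the 5 width classes it was more frequent at the peaks of myoblasts alone, with differences of −11.5 to −2.59 points. When unsupported peaks were counted too, the order was the opposite, with shared peaks 11.1 points higher. Unsupported peaks had MLL1 at 35.4% where shared and 23.6% where of myoblasts alone. The difference of −1.25 points also turned to 0.509 with an overlap of 50% of the shorter peak, so no direction can be given over all widths. With the wider 50% of each list the MLL1 difference was 1.76. That setting also left the narrower myotube peaks out of the search. It thereby counted 1026 peaks as of myoblasts alone, against 685 in the main setting, so 1.76 does not describe wide peaks only. MLL3, an enzyme known mainly from enhancers, lay at 19.9% of the shared and 17.5% of the myoblast peaks, against 18.8% of all, and its intervals overlapped.

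Factors mapped in the other state, apart from MLL3, were also more frequent at shared peaks. Supported myotube peaks that were shared had myoblast Menin at 93.3%, Wdr5 at 93.8%, MLL1 at 42.4% and LSD1 at 51.6%. Those of myotubes alone had them at 81.5%, 85.5%, 25.3% and 32.7%, against 85.6%, 83.8%, 34.6% and 34.5% of all pooled myotube peaks. For MLL3 the shares were 21.2% and 20.2%, with overlapping intervals. The MLL3 difference was negative in 4 of the 5 width classes and turned to −0.468 points without myotube replicate 2, so no direction is given. Supported myoblast peaks that were shared had myotube Sin3A at 92.9% and LSD1 at 52.5%, and those of myoblasts alone at 61.3% and 24.5%, against 76.4% and 38.0% of all pooled myoblast peaks. The Sin3A difference was 31.6 points, and 25.1 to 32.6 points within the width classes. It was 48.0 points for all pooled peaks and 13.2 points for the wider 50% of each list. The latter setting did not search the narrower myotube peaks, so part of the shared peaks counted as unshared. The LSD1 difference was 28.0 points, and 11.6 to 46.5 points within the width classes. It was 15.7 points without myoblast replicate 2, which left 19 unshared peaks.

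**Figure D5:**
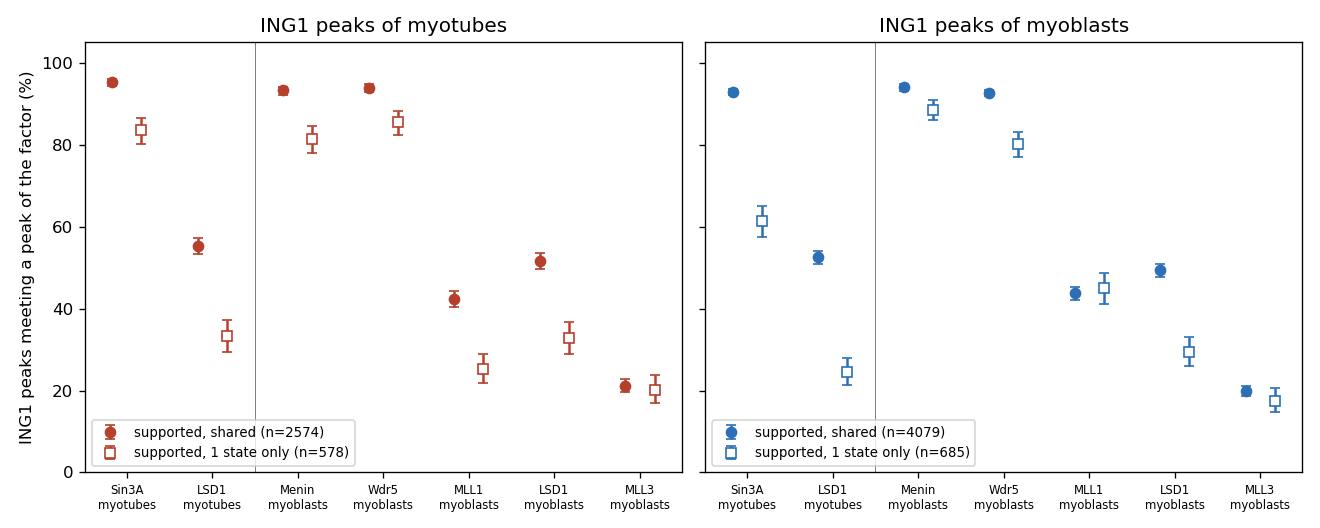
Share of supported ING1 peaks that meet a peak of another factor (%), for peaks of myotubes (left, red) and myoblasts (right, blue). Filled circles are peaks shared by both states, open squares peaks of 1 state, bars exact 95% binomial intervals, and the grey line divides factors mapped in myotubes from those mapped in myoblasts. Sin3A lies at 92.9% of shared myoblast peaks and 61.3% of those of myoblasts alone, while MLL1 lies at 43.7% and 45.0%.

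The factors were also counted at sites classed by replicate lists alone. Sites held by 2 or 3 myotube lists and no myoblast list numbered 257, and had MLL1 at 29.2% (exact 95% interval 23.7 to 35.2) and LSD1 of myotubes at 33.1% (27.4 to 39.2). The 70 sites held by both myoblast lists and no myotube list had them at 55.7% (43.3 to 67.6) in each case. Sites in lists of both states had MLL1 at 45.4% and LSD1 of myotubes at 58.2%. Sin3A lay at 83.7% of the 257 sites, 90.0% of the 70 sites and 96.2% of the sites of both states. Of all 5921 supported sites, 42.0% had MLL1, 47.1% LSD1 of myotubes and 88.3% Sin3A, so the Sin3A share of the 70 sites was near that of all. Of the 70 sites, 61 were in the pooled lists of both states. So were 154 of the 252 sites in 2 myotube lists and no myoblast list, and 4 of the 5 in all 3. Median site width was 982 bp for the 257 sites, 1395 bp for the 70 and 1327 bp for sites of both states. The part of width in these shares was not tested.

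The same question was asked over whole replicate lists. MLL1 lay at 35.8%, 36.7% and 23.0% of the peaks of the myotube lists and at 45.9% and 41.7% of those of the myoblast lists, and the states did not overlap. The means were 31.8 ± 7.69% in myotubes (SD, n = 3) and 43.8 ± 2.99% in myoblasts (SD, n = 2; exact permutation p = 0.2, adjusted p = 0.9). With each list shortened to its 122 widest peaks the shares were 48.4%, 45.1% and 23.0% in myotubes and 50.0% and 68.9% in myoblasts (exact permutation p = 0.2). The cut lists differed in median width, at 1159.5, 1255 and 479 bp in myotubes and 725.5 and 1801.5 bp in myoblasts. Supported shared myoblast peaks had MLL1 at 32.1% under 500 bp and 58.9% at 1500 bp or more. The part of width in the cut lists was not tested. Sin3A lay at 91.0%, 92.6% and 95.1% of the myotube lists and 90.4% and 86.6% of the myoblast lists, again without overlap (exact permutation p = 0.2, adjusted p = 0.9). With 122 peaks per list the Sin3A shares were 98.4%, 99.2% and 95.1% in myotubes and 95.1% and 95.9% in myoblasts, and the ranges overlapped. Menin lay at 89.2%, 90.9% and 78.7% in myotubes and 90.9% and 92.3% in myoblasts (exact permutation p = 0.4). For Menin, Wdr5, MLL3 and both LSD1 lists, the means of the states differed by less than the larger of their SDs.

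ING1 peaks were spread over all 19 autosomes in similar shares in both states. Chromosome 11 held the most supported peaks, 10.4% in myotubes and 10.3% in myoblasts, followed by chromosome 2 with 8.57% and 9.13%. Chromosome 16 held the fewest, 2.25% and 2.58%. In the replicate lists chromosome 11 held 10.5%, 10.5% and 13.1% of the myotube peaks and 10.3% and 10.2% of the myoblast peaks. Supported myotube peaks met a myoblast peak in 71.4% of cases on chromosome 18 to 86.3% on chromosome 11. Supported myoblast peaks met a myotube peak in 78.6% of cases on chromosome 9 to 93.0% on chromosome 8.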

How the data were processed

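The deposited values were peak boundaries in base pairs, per the file headers, with the columns chromosome, left and right boundary; 2 of the pooled lists carry no header line and were read in the same column order. Per the submitters' processing notes, the tools were Bowtie 0.12.9, bedtools 2.17.0 and SAMtools 0.1.19, with the builds NCBIM37 and mm9. Which program called or pooled peaks is not given in the sources used here. Left boundaries were read as counted from 0, printed starts count from 1. Sample titles gave the groups and replicate numbers. Input chromatin and RNA-seq were not analysed here.

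Overlaps were computed in Python 3.11.15 with NumPy 2.4.6 and SciPy 1.17.1 and tested on simulated lists. Chromosomes 1 to 19 were used and 1 bp counted as overlap. Pooled lists were used for Menin, MLL1, Wdr5 and Sin3A and single lists for LSD1 and MLL3. Shares have exact binomial 95% intervals, which cover counting error only. Values per list were compared by exact two-sided permutation over 10 arrangements (2 times the smaller tail), adjusted after Benjamini and Hochberg over 9 measures. Named regions were the 5 widest sites in all 5 replicate lists, the 5 best-supported and then widest myotube peaks in no myoblast list, and the 5 widest myoblast peaks in both replicate lists and no myotube list. Gene names and gene lists were left out, since an mm9 annotation was not used here. The comparisons, classes and lists were chosen with earlier results of these data known.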

Additional observations from a re-analysis of the deposited data

How the results depend on the processing

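The share of supported myotube peaks that met a myoblast peak (81.7%) was 80.1% with an overlap of 50% of the shorter peak, 83.9% within 500 bp, 62.5% for all pooled peaks, 88.1% for peaks in at least 2 replicate lists, 66.8% against supported peaks, 69.3% with unions of replicate lists, 64.4% for the wider 50% of each list, 51.3% with lists of equal length and 86.3% with replicate lists added to the search. The share for myoblasts (85.6%) was 82.9%, 88.2%, 72.2%, 97.6%, 45.7%, 41.7%, 68.1% and 51.3% in the first 8 of these settings. With the wider 50% of each list, narrower peaks of the other state were not searched. With lists of equal length, only supported peaks of the other state were searched. Those values therefore belong beside 66.8% for myotubes and 45.7% for myoblasts. Leaving out a replicate gave 81.7 to 83.7% and 85.6 to 95.3%. Only support was recounted there, and the pooled lists searched stayed the same. Leaving out a replicate of the other state could therefore not change these shares. With unions, where the searched list changed too, it gave 8.88 to 72.1% for myotubes and 28.7 to 67.7% for myoblasts. 

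Differences between shared peaks and peaks of 1 state, with all pooled peaks counted, were 26.5 points for Sin3A in myotubes, and in myoblasts 16.6 for Menin, 26.0 for Wdr5, 28.9 for LSD1 and 11.1 for MLL1. With the wider 50% of each list they were 5.84 for Sin3A, 1.11 for Menin, 6.0 for Wdr5, 6.08 for MLL3 and 1.76 for MLL1. These values are not differences among wide peaks alone, since shared peaks with a narrower partner counted as peaks of 1 state. With peaks in at least 2 lists, only 8 myoblast peaks were unshared, and Wdr5 gave 8.26, MLL1 1.21 and MLL3 −0.758; MLL1 gave 0.509 with 50% overlap. Leaving out a replicate gave 9.68 to 13.5 for Sin3A in myotubes. In myoblasts it gave 4.84 to 25.9 for Menin, −19.8 to −0.500 for MLL1, 12.4 to 16.4 for Wdr5 and 19.7 to 35.8 for LSD1. The far values in myoblasts are without myoblast replicate 2, with 19 unshared peaks. Here too only support was recounted, so leaving out a replicate of the other state could not change a difference. At myoblast peaks Sin3A of myotubes (31.6) gave 13.2 to 48.0 over all settings and LSD1 of myotubes (28.0) 15.5 to 31.8. At myotube peaks MLL3 gave −0.468 to 2.92.

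Myotube minus myoblast differences per list, with a replicate left out, ran from −3910 to 1159 peaks, −100.0 to 22 bp in median width, −1.97 to 0.484 points for Wdr5, −0.727 to 2.44 for MLL3 and −8.11 to 3.78 for LSD1 of myotubes. Those of Menin, MLL1, LSD1 of myoblasts and Sin3A kept their direction. MLL3 gave −5.05 with lists of equal length, and without both short lists MLL3 gave −1.55, Wdr5 1.61 and LSD1 of myotubes 2.30. The labels give no shared origin to equal replicate numbers and only 2 numbers are common, so pairing could not be checked; with the replicate block the differences were −643.5 peaks, 0.377 points for Wdr5 and −0.727 for MLL3, and the other 6 kept their direction. The gap between pairs within and between states ran from −6.46 to 24.1 points with a replicate left out, and was 3.21 with lists of equal length.

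Sites in lists of both states numbered 297 to 2219, of myotube lists alone 530 to 2829 and of myoblast lists alone 114 to 3474 with a replicate left out. The myotube peak was wider at 53.6 to 61.7% of one-to-one sites with a replicate left out, 55.1% for peaks in 2 lists, and 67.3%, 33.8%, 68.9% and 33.0% in pairs of replicate lists. The settings for widths and sites, the added replicate lists and the removal of both short lists were chosen after seeing the data. The depth behind the lists is unknown, so absence of a peak is not shown to be absence of binding.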
